A study of Arabidopsis thaliana with 41 samples.

Results

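Nuclear genes for the photosystems, their chlorophyll-binding antennae and Rubisco were examined in rosette leaves of Arabidopsis thaliana, a small annual plant of the mustard family. The set was listed by locus from family membership and not by a cut on measured values, but with earlier results of these data known. The set leaves out some measured genes of these families, such as LHCA5, LHCA6, PSAE2, PSAH1 and PSBS, which are counted further below. It lists 42 loci, of which 30 were measured among the 21164 loci of the table: 3 of 4 antenna genes of photosystem I, 7 of 14 antenna genes of photosystem II, the Rubisco activase gene RCA, 10 of 10 photosystem I subunit genes and 9 of 9 photosystem II subunit genes. The other 12, which are LHCA2, LHCB1.1 to LHCB1.5, LHCB2.1, LHCB2.2 and the Rubisco small subunit genes RBCS1A, RBCS1B, RBCS2B and RBCS3B, are not analysed here. The set is therefore without the main trimeric antenna genes other than LHCB2.3 and LHCB3, and RCA is its only member tied to Rubisco.

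Leaf RNA came from 7 natural accessions, each an inbred wild line with no introduced allele named in the labels: Ag-0, Bil-5, Got-22, Eden-1, Tamm-2, Omo2-3 and Ull2-5. In the dry groups the pots were let down in daily steps over 5 days to about 50% of their available water, and in the wet groups, the controls, they were held near 90%. Plants of both treatments stood 1 to a pot in a ceramic medium at 23 °C by day and 18 °C by night, with a 10 h photoperiod at 330 µmol of photons per square metre per second. There were 20 dry and 21 wet arrays, 3 in each group apart from 2 in dry Ag-0; the design text calls the replicates biological and names 18 accessions, of which the other ones are not analysed here.

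Light is captured by pigment-protein antennae and passed to photosystem II, which splits water at a manganese cluster shielded by the extrinsic proteins PSBO, PSBP and PSBQ, and to photosystem I, which reduces ferredoxin. Their reaction-centre proteins are encoded in the chloroplast, while the antennae and many peripheral subunits are made from nuclear genes in the cytosol and imported. Rubisco fixes carbon dioxide in the stroma, and Rubisco activase frees its active sites of blocking sugar phosphates. In leaves these transcripts belong chiefly to mesophyll cells and are among the most abundant messages, and they are known to respond to light, sugars and chloroplast state.

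All values are the authors' log2 signals, 1 per locus and array. The 41 arrays had medians between 5.66 and 5.79 and highest signals between 13.73 and 14.30. Of the 113 loci with a mean signal over 12, 25 were members of the set, so most of these genes were read near the top of the scale. Transcripts of the set moved together from array to array within a group: in Bil-5 wet, replicate 1 was the lowest of the 3 arrays for 29 of the 30 genes and replicate 2 the highest for 29, and in Tamm-2 dry replicate 3 was the lowest for 30. Such ranks were not counted over all loci, so they do not show whether the shifts were particular to the set. The median of the 30 genes was 11.95, 12.96 and 12.53 on wet Bil-5 replicates 1 to 3, and 12.94, 11.87 and 12.61 on those of wet Ull2-5. Within-group spread was also wider for these genes (median residual SD 0.29) than over all loci (0.19), but loci of a similar level were not compared. A quality weight under 0.5 was found for 3 arrays: 0.271 for dry Bil-5 replicate 3, 0.360 for wet Bil-5 replicate 2 and 0.327 for dry Tamm-2 replicate 3. Each was an extreme array of its group for the set, and counts are therefore also given without them, which was decided once the data had been seen.

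**Figure D1:**
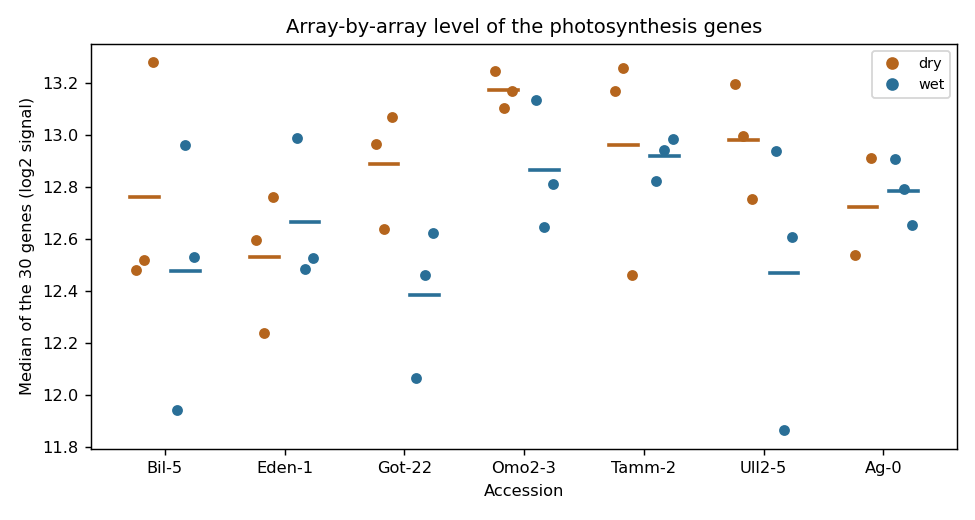
Median log2 signal of the 30 measured genes on each array (points), by accession on the horizontal axis, with dry arrays to the left of wet arrays; bars are group means of these medians. Points of a group lie up to 1.07 log2 units apart (wet Ull2-5), and Omo2-3 dry arrays sit at 13.10 to 13.24.

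**Figure D2:**
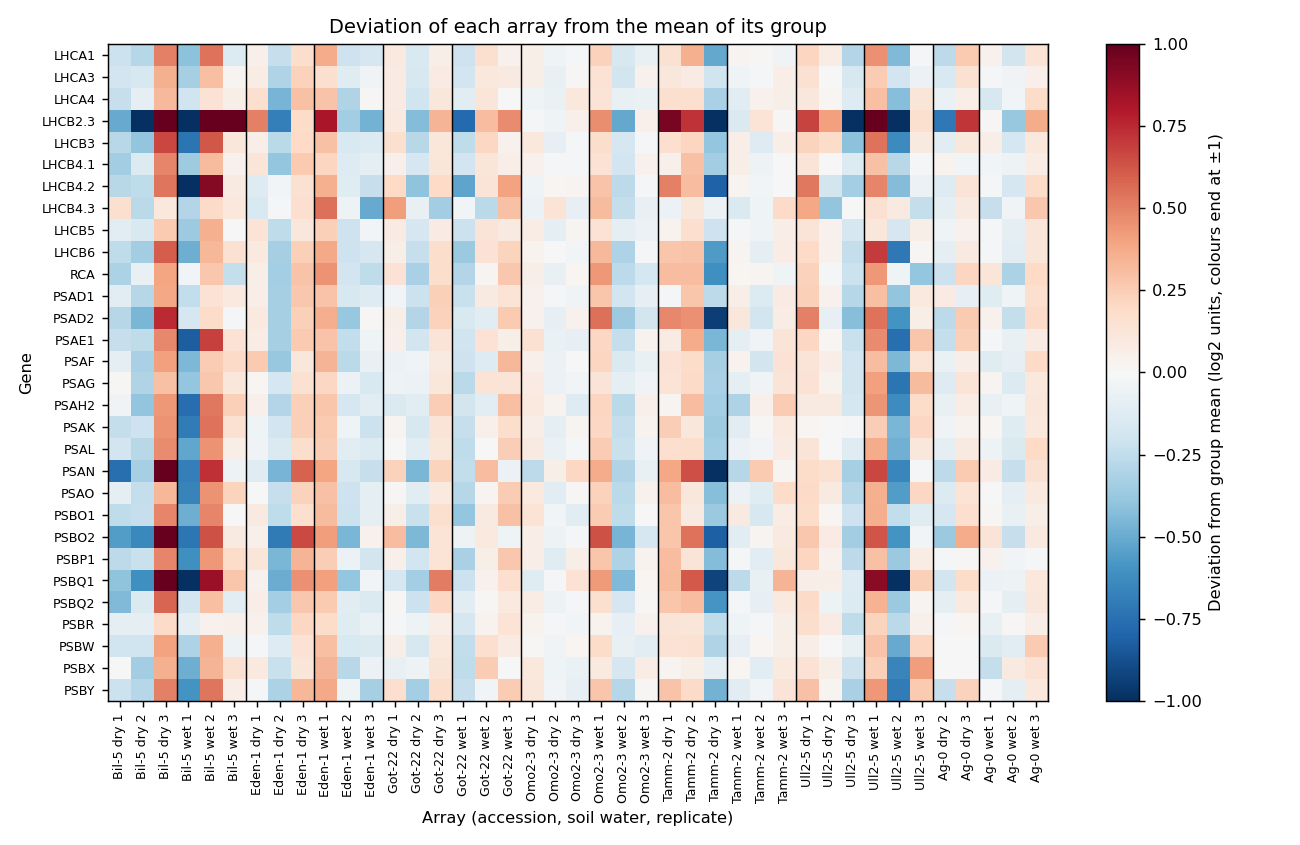
Deviation of each array from the mean of its group (colour, log2 units, ending at ±1), with the 30 genes in rows and the 41 arrays in columns, dry before wet within each accession. Whole columns take 1 colour, as in Bil-5 dry replicate 3 or Tamm-2 dry replicate 3, where nearly all genes deviate the same way.

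The comparison of dry with wet plants asked what mild soil drying changed in leaves. Over the 7 accessions 5 of the 30 genes rose and 1 fell by limma at an adjusted p under 0.05, which is 16.7% and 3.33% of the set, against 12.2% of all loci that rose and 11.5% that fell. The genes that rose were LHCB4.1 and LHCB6 of the photosystem II antenna, PSAH2 of photosystem I, and PSBO1 and PSBO2, both for the manganese-stabilising protein, and the 1 that fell was LHCB4.3, a further antenna gene. Changes were small: the median over the 30 genes was 0.16 log2 units, against -0.000186 over all loci. The drying change was above 0 for 28 of 30 genes (93.3%) and for 49.9% of all loci, and since the genes moved together on single arrays these signs are not independent of each other. Without the 3 arrays of low weight 10 genes rose (background 13.2%) and 0 fell (12.1%, by limma), the added ones being PSAK, PSBY, LHCA3, PSAO and LHCB3. Without Got-22 only PSBO2 kept its rise, and without Omo2-3 or Ull2-5 only PSBO1 and PSBO2 did. In RNA of whole leaves, a change in the share of mesophyll cells and a change in RNA per cell cannot be told apart.

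**Figure D3:**
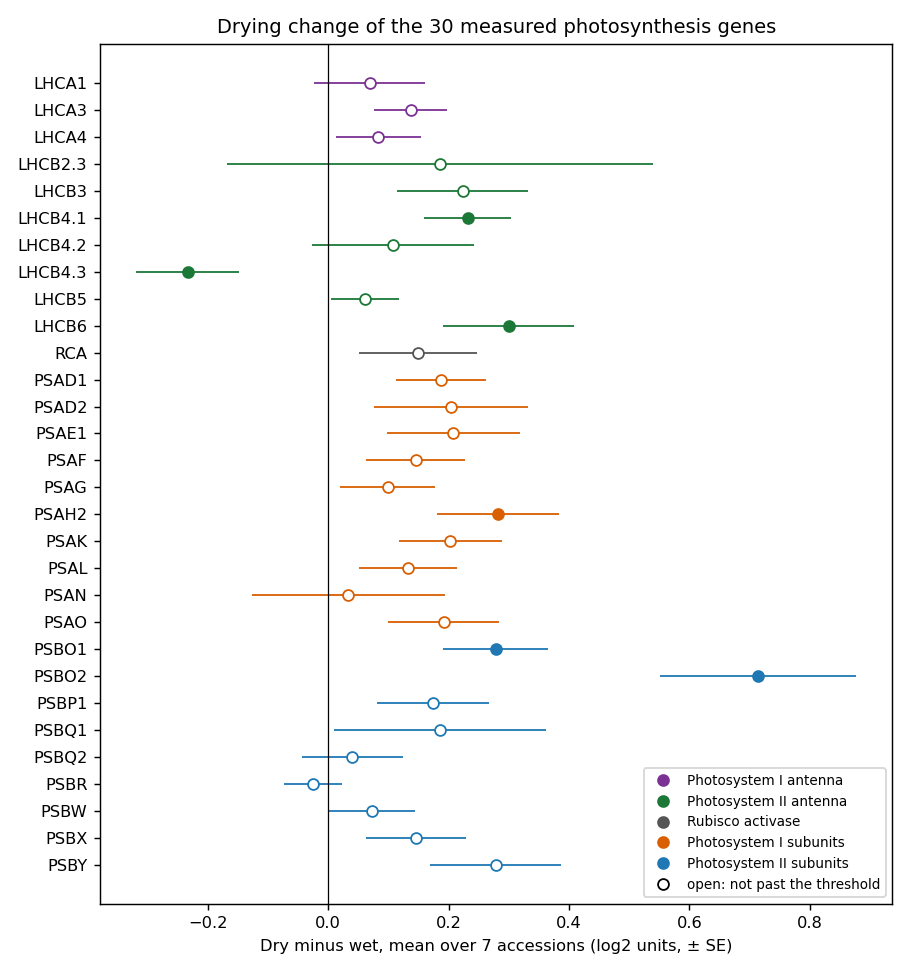
Drying change (dry minus wet, log2 units, mean over 7 accessions) of each of the 30 genes with its standard error; filled points passed limma's threshold and colours mark the class. PSBO2 lies farthest right at 0.71, LHCB4.3 farthest left at -0.23, and 28 of 30 points lie right of 0.

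The 3 measured photosystem I antenna genes of the set differed little between treatments. Of them 0 of 3 passed limma's threshold (1 had an unadjusted p under 0.05, as did 34.1% of all loci). These encode the crescent of chlorophyll-binding proteins on the core of photosystem I. LHCA1 (AT3G54890) had signals of 12.36 to 13.35 on dry arrays (median 13.07), against 12.27 to 13.34 on wet arrays (median 12.87). For LHCA3 (AT1G61520) the dry arrays ran from 13.29 to 14.08 (median 13.83), and the wet arrays from 13.22 to 13.92 (median 13.69). LHCA4 (AT3G47470) lay between 12.66 and 13.66 on dry arrays (median 13.45), against 12.72 and 13.58 on wet arrays (median 13.35). Dry and wet ranges overlapped almost wholly for each gene. Their drying changes were 0.07 ± 0.09, 0.14 ± 0.06 and 0.08 ± 0.07 (SE, 7 accessions), with limma adjusted p of 0.669, 0.10 and 0.456 in the same order of genes. This does not hold for every antenna gene of photosystem I: LHCA5 and LHCA6, outside the set, rose by 0.83 ± 0.14 and 1.24 ± 0.23 (SE).

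Among the 7 measured photosystem II antenna genes, 2 rose, 1 fell and 4 did not pass the threshold, and the median change was 0.19. Over all loci 12.2% rose and 11.5% fell. An unadjusted p under 0.05 was found for 4 of the 7, against 34.1% of all loci. LHCB4.1 (AT5G01530), which encodes a minor monomeric antenna protein that links the outer antenna to the core, had signals of 12.65 to 13.63 on dry arrays (median 13.34), against 12.55 to 13.35 on wet arrays (median 13.16). Averages were 13.29 ± 0.27 dry (SD, n = 20) and 13.06 ± 0.23 wet (SD, n = 21), a rise of 0.23 ± 0.07 (SE; limma adjusted p = 0.0184). By group its means were 13.15 dry and 12.91 wet in Bil-5, 13.04 dry and 13.14 wet in Eden-1, 13.38 dry and 12.85 wet in Got-22, 13.46 dry and 13.19 wet in Omo2-3, 13.32 dry and 13.22 wet in Tamm-2, 13.44 dry and 12.91 wet in Ull2-5, and 13.26 dry and 13.21 wet in Ag-0. Dry lay above wet in 6 of 7 accessions, Eden-1 being the exception. In Got-22, Omo2-3 and Ull2-5 all dry arrays lay above all wet arrays, as for 6.78%, 7.47% and 10% of all loci in that order. Its call was lost without Got-22 (limma adjusted p = 0.124), Omo2-3 (0.0541) or Ull2-5 (0.110).

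LHCB6 (AT1G15820), another minor antenna gene, whose protein helps bind the outer trimers, spanned 11.83 to 12.97 on dry arrays (median 12.54) and 11.16 to 12.72 on wet arrays (median 12.26). It averaged 12.50 ± 0.33 on dry arrays (SD, n = 20) and 12.20 ± 0.39 on wet arrays (SD, n = 21), and rose by 0.30 ± 0.11 (SE; limma adjusted p = 0.0440). Group by group the means were 12.36 dry and 12.03 wet in Bil-5, 12.16 dry and 12.30 wet in Eden-1, 12.61 dry and 11.97 wet in Got-22, 12.79 dry and 12.40 wet in Omo2-3, 12.60 dry and 12.42 wet in Tamm-2, 12.51 dry and 11.88 wet in Ull2-5, and 12.43 dry and 12.37 wet in Ag-0. Dry lay below wet in Eden-1 alone, and the means lay farthest apart in Got-22 and Ull2-5. The call stood close to the threshold: it was lost in 26 of 41 fits that left out 1 array (limma adjusted p up to 0.0768), with each array centred on its median (0.0554), and without any 1 accession other than Eden-1 or Ag-0 (0.0546 to 0.171).

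LHCB4.3 (AT2G40100) is a divergent member of the same small family as LHCB4.1, and it went the other way. Its signals lay between 7.99 and 8.97 on dry arrays (median 8.55), against 8.17 and 9.52 on wet arrays (median 8.73). It averaged 8.55 ± 0.25 dry (SD, n = 20) and 8.78 ± 0.33 wet (SD, n = 21), a change of -0.23 ± 0.09 (SE; limma adjusted p = 0.0471). The group means were 8.53 dry and 8.63 wet in Bil-5, 8.55 dry and 8.97 wet in Eden-1, 8.47 dry and 8.43 wet in Got-22, 8.83 dry and 9.09 wet in Omo2-3, 8.57 dry and 8.75 wet in Tamm-2, 8.38 dry and 8.83 wet in Ull2-5, and 8.47 dry and 8.74 wet in Ag-0. Dry lay below wet in 6 of 7 accessions, with Got-22 the exception, but dry and wet arrays overlapped in every accession. The call was lost in 26 of 41 fits that left out 1 array (limma adjusted p up to 0.0880), without the 3 arrays of low weight (0.0825), with each array centred on its median (0.0526), with a trended robust prior (0.0515), and without any 1 accession other than Got-22 (0.0546 to 0.134).

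The other 4 genes of this class did not pass limma's threshold. LHCB4.2 (AT3G08940), the remaining LHCB4 copy, changed by 0.11 ± 0.13 (SE; limma adjusted p = 0.637), with group means of 12.21 dry and 11.87 wet in Bil-5, 11.98 dry and 12.16 wet in Eden-1, 12.08 dry and 11.71 wet in Got-22, 12.69 dry and 12.48 wet in Omo2-3, 11.98 dry and 12.23 wet in Tamm-2, 12.11 dry and 11.69 wet in Ull2-5, and 12.02 dry and 12.16 wet in Ag-0. LHCB3 (AT5G54270), a subunit of the outer trimers, differed by 0.22 ± 0.11 (0.144) and ran from 12.62 to 13.71 on dry arrays, against 12.05 to 13.45 on wet arrays. LHCB5 (AT4G10340), a minor antenna gene, differed by 0.06 ± 0.06 (0.504), between 12.99 and 13.70 on dry arrays and between 12.96 and 13.70 on wet arrays.

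LHCB2.3 (AT3G27690), a gene of the trimeric antenna that is phosphorylated in state transitions, was the most scattered member, with a residual SD of 1.17. Its signal was 9.48, 8.15 and 12.34 dry and 6.26, 11.06 and 10.40 wet in Bil-5, and 11.42, 11.39 and 11.48 dry and 11.45, 10.47 and 11.03 wet in Omo2-3. In Bil-5 both treatments thus spanned several log2 units, whereas the 3 dry Omo2-3 arrays lay close together. The drying change was 0.19 ± 0.35 (SE; limma adjusted p = 0.775), and without Bil-5 wet replicate 1 it was -0.03.

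RCA (AT2G39730) had signals of 12.28 to 13.38 on dry arrays (median 13.01), against 12.10 to 13.42 on wet arrays (median 12.73). The ranges overlapped, and the change was 0.15 ± 0.10 (SE; limma adjusted p = 0.306). Its group means lay between 12.40 in wet Got-22 and 13.19 in dry Omo2-3.

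Of the 10 photosystem I subunit genes of the set 1 rose and 9 did not pass, where 12.2% of all loci rose. The median change was 0.19. It was above 0 for 10 of 10 genes and for 49.9% of all loci, but genes that moved together on single arrays do not give independent signs. For 4 of the 10 the unadjusted p was under 0.05, against 34.1% of all loci. PSAH2 (AT1G52230) encodes a subunit at the side of photosystem I where mobile antenna docks. It had signals of 12.50 to 13.48 on dry arrays (median 13.01), against 11.79 to 13.27 on wet arrays (median 12.86). Averages were 13.07 ± 0.28 dry (SD, n = 20) and 12.78 ± 0.39 wet (SD, n = 21), a rise of 0.28 ± 0.10 (SE; limma adjusted p = 0.0414). Its group means were 13.01 dry and 12.64 wet in Bil-5, 12.79 dry and 13.00 wet in Eden-1, 13.10 dry and 12.58 wet in Got-22, 13.37 dry and 13.00 wet in Omo2-3, 13.17 dry and 12.91 wet in Tamm-2, 13.12 dry and 12.42 wet in Ull2-5, and 12.85 dry and 12.89 wet in Ag-0. Dry was above wet in 5 of 7 accessions, with Eden-1 and Ag-0 below, and the separation was widest in Ull2-5. The call was lost in 21 of 41 fits that left out 1 array (limma adjusted p up to 0.0715), with each array centred on its median (0.0520), and without Got-22, Omo2-3, Tamm-2 or Ull2-5 (0.0682 to 0.166).

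PSAL (AT4G12800) and PSAO (AT1G08380) lie on the same docking side. PSAL changed by 0.13 ± 0.08 (SE; limma adjusted p = 0.270), between 12.02 and 12.97 on dry arrays and between 11.58 and 12.89 on wet arrays, and PSAO by 0.19 ± 0.09 (0.137), between 12.70 and 13.70 on dry arrays and between 12.21 and 13.50 on wet arrays. PSAD1 (AT4G02770) and PSAD2 (AT1G03130), copies encoding the stromal subunit at which ferredoxin docks, changed by 0.19 ± 0.07 (0.0661) and 0.20 ± 0.13 (0.282). By group PSAD1 averaged 12.52 dry and 12.22 wet in Bil-5, 12.32 dry and 12.42 wet in Eden-1, 12.55 dry and 12.16 wet in Got-22, 12.79 dry and 12.47 wet in Omo2-3, 12.28 dry and 12.42 wet in Tamm-2, 12.59 dry and 12.04 wet in Ull2-5, and 12.33 dry and 12.35 wet in Ag-0. PSAD2 averaged 11.84 dry and 11.45 wet in Bil-5, 11.51 dry and 11.53 wet in Eden-1, 11.67 dry and 11.08 wet in Got-22, 12.17 dry and 11.90 wet in Omo2-3, 11.77 dry and 11.96 wet in Tamm-2, 11.92 dry and 11.34 wet in Ull2-5, and 11.56 dry and 11.75 wet in Ag-0. Both copies were lowest in wet Got-22 or wet Ull2-5 and highest in dry Omo2-3. PSAE1 (AT4G28750), which encodes a neighbouring stromal subunit, changed by 0.21 ± 0.11 (limma adjusted p = 0.189).

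PSAF (AT1G31330) and PSAN (AT5G64040) encode subunits of the lumenal side, where plastocyanin delivers electrons. PSAF changed by 0.15 ± 0.08 (SE; limma adjusted p = 0.219), with group means of 12.97 dry and 12.72 wet in Bil-5, 12.67 dry and 12.82 wet in Eden-1, 13.07 dry and 12.72 wet in Got-22, 13.24 dry and 13.11 wet in Omo2-3, 13.27 dry and 13.13 wet in Tamm-2, 13.08 dry and 12.84 wet in Ull2-5, and 13.07 dry and 13.03 wet in Ag-0. PSAN had the lowest absolute change of its class, 0.03 ± 0.16 (0.919), and its means were 11.98 dry and 12.02 wet in Bil-5, 11.62 dry and 12.14 wet in Eden-1, 12.34 dry and 11.68 wet in Got-22, 12.96 dry and 12.48 wet in Omo2-3, 12.37 dry and 12.68 wet in Tamm-2, 12.32 dry and 11.82 wet in Ull2-5, and 12.03 dry and 12.56 wet in Ag-0. In PSAN the accessions pointed apart: Got-22, Omo2-3 and Ull2-5 were higher dry, and Eden-1, Tamm-2, Ag-0 and Bil-5 higher wet. PSAG (AT1G55670) and PSAK (AT1G30380), a related pair of membrane subunits at the edge of the core, changed by 0.10 ± 0.08 (0.423) and 0.20 ± 0.09 (0.0885).

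Of the 9 photosystem II subunit genes 2 rose and 7 did not pass, where 12.2% of all loci rose, and the median change was 0.17. An unadjusted p under 0.05 was found for 3 of the 9, against 34.1% of all loci. The gene of the set with the largest change was PSBO2 (AT3G50820), a copy of the gene for the manganese-stabilising protein. Its signals on dry and wet arrays were 11.96, 11.20 and 11.79 dry and 10.32, 10.46 and 10.32 wet in Got-22, and between 11.96 and 12.08 dry and 11.83, 10.72 and 11.02 wet in Omo2-3. They were 11.55, 11.36 and 10.94 dry and 10.88, 9.65 and 10.22 wet in Ull2-5, and 11.97, 12.24 and 10.88 dry and 11.18, 11.32 and 11.38 wet in Tamm-2. In Bil-5 they were 10.73, 10.64 and 12.49 dry and 9.82, 11.18 and 10.63 wet, in Eden-1 9.75, 8.99 and 10.37 dry and 9.79, 8.91 and 9.41 wet, and in Ag-0 11.20 and 11.94 dry and 11.30, 10.95 and 11.28 wet. All dry arrays lay above all wet arrays in Got-22, Omo2-3 and Ull2-5, as for 6.78%, 7.47% and 10% of all loci in that order. The treatments overlapped in the other accessions. The lowest dry and highest wet values lay close together in Omo2-3 (11.96 and 11.83) and Ull2-5 (10.94 and 10.88). The average was 11.30 ± 0.89 dry (SD, n = 20) and 10.60 ± 0.75 wet (SD, n = 21), a rise of 0.71 ± 0.16 (SE), or 1.64-fold, with limma adjusted p = 0.00163. PSBO2 was higher dry in 7 of 7 accessions, as were 9.79% of all loci, and it was the only member with 1 sign throughout. Its rise passed the threshold in each fit that left out 1 array or 1 accession.

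PSBO1 (AT5G66570), the other copy of that gene, had signals of 12.38 to 13.41 on dry arrays (median 12.98), against 11.99 to 13.10 on wet arrays (median 12.67). It averaged 12.95 ± 0.27 dry (SD, n = 20) and 12.68 ± 0.31 wet (SD, n = 21), a rise of 0.28 ± 0.09 (SE), or 1.21-fold, with limma adjusted p = 0.0186. Its group means were 12.89 dry and 12.51 wet in Bil-5, 12.64 dry and 12.64 wet in Eden-1, 12.91 dry and 12.37 wet in Got-22, 13.11 dry and 12.82 wet in Omo2-3, 13.14 dry and 12.91 wet in Tamm-2, 13.01 dry and 12.73 wet in Ull2-5, and 12.99 dry and 12.75 wet in Ag-0. Eden-1 was level between treatments, and the other 6 accessions were higher dry. Leaving out Got-22 ended the call (limma adjusted p = 0.0781).

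PSBP1 (AT1G06680), PSBQ1 (AT4G21280) and PSBQ2 (AT4G05180) encode the further extrinsic proteins of the oxygen-evolving complex, and none passed limma's threshold (0 of 3 also at an unadjusted p under 0.05). PSBP1 changed by 0.17 ± 0.09 (SE; limma adjusted p = 0.192), and PSBQ1 and PSBQ2 by 0.19 ± 0.18 (0.513) and 0.04 ± 0.08 (0.797). PSBQ1 averaged 11.26 dry and 11.07 wet in Bil-5, 10.89 dry and 11.35 wet in Eden-1, 11.44 dry and 10.74 wet in Got-22, 12.03 dry and 11.74 wet in Omo2-3, 11.66 dry and 11.71 wet in Tamm-2, 11.46 dry and 10.52 wet in Ull2-5, and 11.25 dry and 11.58 wet in Ag-0. For PSBQ2 the averages were 12.74 dry and 12.87 wet in Bil-5, 12.48 dry and 12.76 wet in Eden-1, 13.03 dry and 12.68 wet in Got-22, 13.24 dry and 13.03 wet in Omo2-3, 13.03 dry and 13.05 wet in Tamm-2, 13.10 dry and 12.86 wet in Ull2-5, and 12.80 dry and 12.89 wet in Ag-0. PSBQ1 had its lowest mean in wet Ull2-5 and PSBQ2 in dry Eden-1, while dry Omo2-3 was highest for both. Quantile normalization turned PSBQ2's change to -0.04.

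Small membrane subunits made up the remaining photosystem II genes. PSBR (AT1G79040), which helps PSBP bind, was the 1 gene of its class with a negative change, -0.03 ± 0.05 (SE; limma adjusted p = 0.771), and it had the smallest standard error of the set. Its group means were 13.12 dry and 13.13 wet in Bil-5, 13.00 dry and 13.10 wet in Eden-1, 13.20 dry and 13.11 wet in Got-22, 13.28 dry and 13.31 wet in Omo2-3, 13.27 dry and 13.36 wet in Tamm-2, 13.12 dry and 13.06 wet in Ull2-5, and 13.13 dry and 13.22 wet in Ag-0. PSBY (AT1G67740) changed by 0.28 ± 0.11 (0.0613), just short of the threshold, with means of 12.26 dry and 11.65 wet in Bil-5, 11.72 dry and 11.97 wet in Eden-1, 12.18 dry and 11.66 wet in Got-22, 12.48 dry and 12.11 wet in Omo2-3, 12.30 dry and 12.09 wet in Tamm-2, 12.27 dry and 11.68 wet in Ull2-5, and 11.98 dry and 12.07 wet in Ag-0. PSBY was higher dry in 5 of 7 accessions, Eden-1 and Ag-0 being lower. PSBW (AT2G30570) and PSBX (AT2G06520) changed by 0.07 ± 0.07 (0.526) and 0.15 ± 0.08 (0.220).

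Copies of a gene were then compared on the same arrays, which removes a shift only where an array gives it equally to both. The shifts were not always equal. On dry Bil-5 replicate 3, PSBO2 read 12.49 against a group mean of 11.28, and PSBO1 13.38 against 12.89. There LHCB4.3 read 8.63 against 8.53, and LHCB4.1 13.63 against 13.15. The copies also differed in level, with means of 10.94 (PSBO2), 12.81 (PSBO1), 8.67 (LHCB4.3) and 13.17 (LHCB4.1). What this adds to the differences was not tested. Of 7 pairs listed, 5 could be run, and each was tested with 100000 two-sided permutations of the soil water labels inside accessions, adjusted over the 5 pairs. The pairs were listed with earlier results of these data known, so the p-values are no independent support. PSBO2 rose more than PSBO1 by 0.44 ± 0.10 log2 units (SE), with a permutation adjusted p of 0.0002, and the difference was positive in 7 of 7 accessions, from 0.16 in Ag-0 to 0.75 in Ull2-5. LHCB4.3 differed from LHCB4.1 by -0.47 ± 0.09 (permutation adjusted p = 0.0002), negative in 7 of 7 accessions, from -0.27 in Tamm-2 to -0.98 in Ull2-5. Both differences kept their sign and their call in each alternative run.

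The other 3 pairs did not pass the threshold. LHCB4.2 differed from LHCB4.1 by -0.12 ± 0.09 (SE; permutation adjusted p = 0.239), PSBQ2 from PSBQ1 by -0.15 ± 0.12 (0.278), and PSAD2 from PSAD1 by 0.02 ± 0.08 (0.840). These p-values do not show that the copies responded alike. LHCB4.2 passed once, without Bil-5 wet replicate 1 (-0.17, permutation adjusted p = 0.0369).

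**Figure D4:**
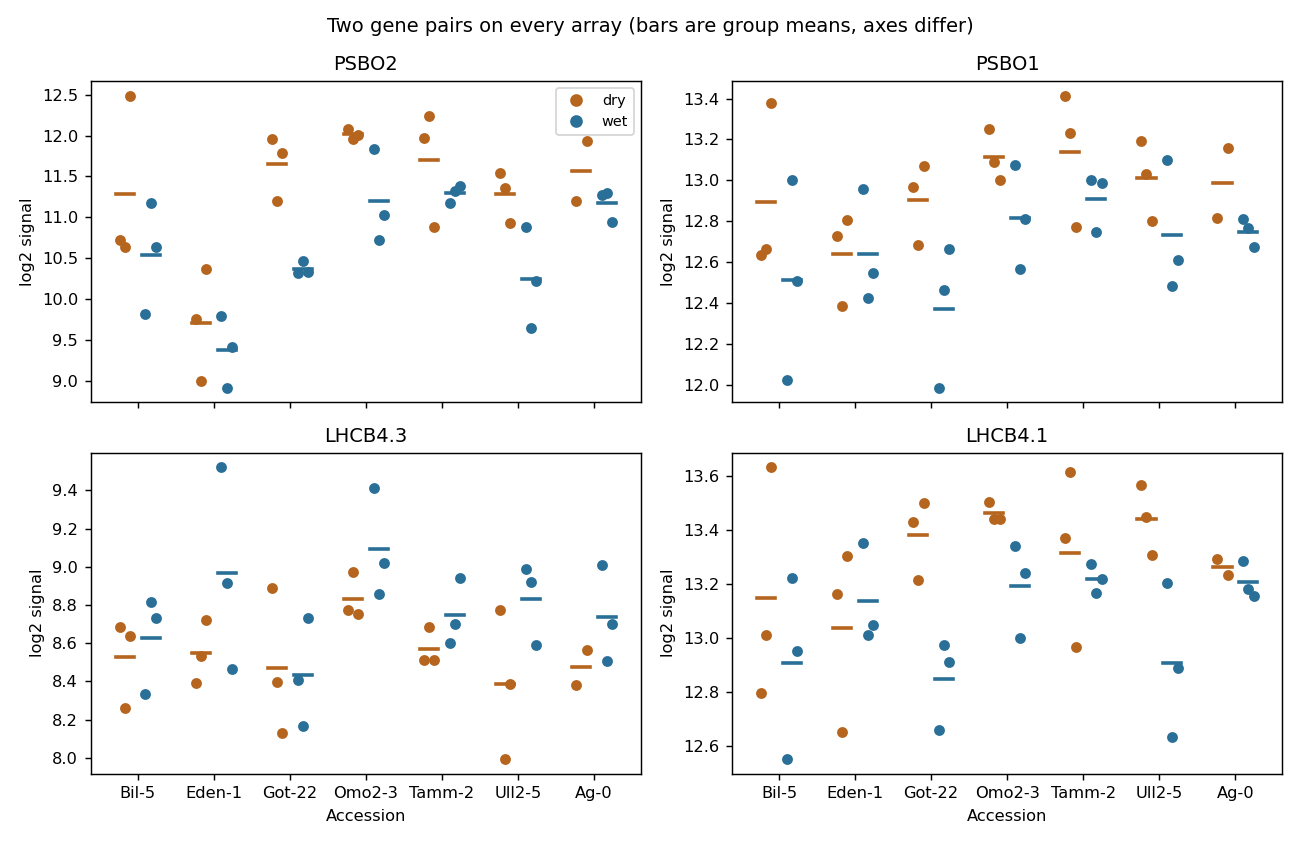
Log2 signals of PSBO2 and PSBO1 (upper panels) and of LHCB4.3 and LHCB4.1 (lower panels) on every array, by accession, with dry arrays left of wet arrays and bars at group means; the vertical axes differ. PSBO2 dry means lie above wet means in all 7 accessions and are lowest in Eden-1, and LHCB4.3 dry means lie below wet means in all but Got-22.

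Drying was also tested within each accession, on 3 against 3 arrays (2 against 3 in Ag-0). Of the 210 combinations of gene and accession 0 passed limma's threshold, where 1.1% of all such combinations did, and 22 had an unadjusted p under 0.05, against 12.1% of all such combinations. The share of all loci called was 0.421% in Ag-0, 4.2% in Bil-5, 0.0945% in Got-22, 0.298% in Eden-1, 1.41% in Ull2-5, 1.26% in Tamm-2 and 0% in Omo2-3. The 22 lay in Ull2-5 (13, against 14.4% of all loci), Got-22 (8, against 9.51%) and Bil-5 (1, against 18.9%). The smallest adjusted p was 0.147, for PSAD1 in Ull2-5, which changed by 0.55 ± 0.19 (SE). Fits on each accession's own arrays also called 0 members, with 21 at an unadjusted p under 0.05 in Got-22, 5 in Ull2-5, 4 in Omo2-3, 1 in Ag-0 and 0 in the others, where 9.73% (Tamm-2) to 14.7% (Ull2-5) of all loci had one.

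In Got-22 the drying change was above 0 for 30 of 30 genes, with a median of 0.45, from 0.04 (LHCB4.3) to 1.28 (PSBO2). Over all loci the share above 0 lay between 46.5% (Omo2-3) and 55.6% (Tamm-2) within the 7 accessions. For 19 of the 30 all dry arrays of Got-22 lay above all its wet arrays, against a background of 6.78%. Ull2-5 had 29 positive changes and a median of 0.45, with PSBO2 at 1.03 and LHCB4.3 at -0.45, and 5 genes separated fully (background 10%). Omo2-3 had 28 positive changes and a median of 0.22, with 7 genes separated (background 7.47%). The medians of these 3 accessions stayed above 0 whichever array was left out, but their size did not always hold. Without wet replicate 2 the median was 0.18 in Ull2-5 and 0.10 in Omo2-3, and without wet replicate 1 it was 0.35 in Omo2-3.

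Bil-5 had 23 positive changes and a median of 0.24, which became -0.06 without wet replicate 1 and -0.04 without dry replicate 3. In Tamm-2 the median was 0.05 with 17 positive changes, and it became 0.27 with 28 positive changes without dry replicate 3, -0.03 without dry replicate 1 and -0.07 without dry replicate 2. Ag-0 had 9 positive changes and a median of -0.07, which became 0.02 without dry replicate 2. Eden-1 had 1 positive change, that of PSBO2 (0.33), and a median of -0.14, which became 0.003 without wet replicate 1. In these 4 accessions the sign of the median thus turned when a single array was left out.

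**Figure D5:**
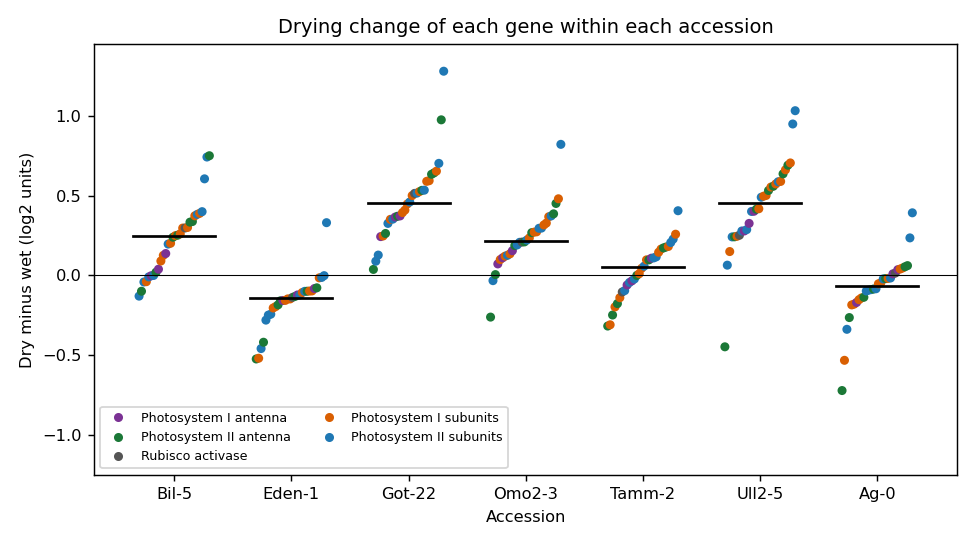
Drying change (dry minus wet, log2 units) of each of the 30 genes within each accession, sorted within the accession, with colours for the class and a bar at the median. All points of Got-22 lie above 0, and all but 1 of Eden-1 (PSBO2, 0.33) lie below it.

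Whether the accessions differed in their response was asked by the interaction test, and 0 of 30 genes passed limma's threshold, with 0 at an unadjusted p under 0.05; 0.0284% of all loci passed and 5.88% had an unadjusted p under 0.05. The smallest adjusted p was 0.944, for PSAD1. The unlike medians of Got-22 and Eden-1 were therefore not shown to differ by this test.

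The next comparison asked whether levels differed between accessions. Over both treatments 2 of 30 genes passed limma's F test for an accession effect, PSBO2 (F = 10.7, adjusted p = 5.12e-05) and PSAL (F = 3.65, adjusted p = 0.0295), against 31.4% of all loci. Dry Omo2-3 held the highest mean for 23 of the 30 genes, and the lowest mean was that of wet Ull2-5 for 11, dry Eden-1 for 7, and wet Bil-5 and wet Got-22 for 5 each. Such counts were not made over all loci, so they do not show anything particular to the set. Since the genes moved together on single arrays, the counts are also not independent from gene to gene.

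PSBO2 was lowest in Eden-1, which averaged 9.54 over both treatments, against 11.19 in the mean of the other accessions, a difference of -1.65 ± 0.23 (SE; limma adjusted p = 4.4e-06, where 8.09% of all loci were called lower in Eden-1). In Eden-1 its 6 arrays lay between 8.91 and 10.37. It was higher in Omo2-3, at 11.60 against 10.85 (0.75 ± 0.23; limma adjusted p = 0.0388; background 3.18%), and that call was lost when any 1 of Omo2-3 dry replicates 1 to 3, Omo2-3 wet replicates 1 or 3, or Ag-0 dry replicate 2 was left out (up to 0.209). Without Eden-1 the accession effect of PSBO2 did not pass (limma adjusted p = 0.145), and on wet arrays alone it did (0.00727; background 14.7%). A sequence difference under a probe and a lower transcript level cannot be told apart in these values. The drying change within Eden-1 sets the same probes against each other, but whether a probe difference would alter its size was not tested. PSBO1 in Eden-1 averaged 12.64 over both treatments, against 12.84 in the mean of the other accessions.

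PSAL was lower in Bil-5, at 12.19 against 12.59 (-0.40 ± 0.11, SE; limma adjusted p = 0.0429; background 2.26%). Its group means were 12.29 dry and 12.09 wet in Bil-5, 12.34 dry and 12.54 wet in Eden-1, 12.62 dry and 12.21 wet in Got-22, 12.88 dry and 12.61 wet in Omo2-3, 12.80 dry and 12.75 wet in Tamm-2, 12.67 dry and 12.52 wet in Ull2-5, and 12.60 dry and 12.55 wet in Ag-0. On the 6 Bil-5 arrays the signals were 12.10, 12.02 and 12.77 dry and 11.58, 12.54 and 12.16 wet, with the highest dry and the highest wet value on the 2 arrays of low weight. The call was lost in 15 of 41 fits that left out 1 array (limma adjusted p up to 0.256, without Bil-5 wet replicate 1), and the F test in 5 (without replicate 1 or 2 of dry Bil-5 or of dry Tamm-2, or replicate 1 of wet Bil-5; up to 0.0768). Centring each array on its median also ended the Bil-5 call (limma adjusted p = 0.0553), and the F test was lost on wet arrays alone (0.304) and without Bil-5, Omo2-3 or Tamm-2 (0.0772 to 0.0806). These were the 3 calls among 210 comparisons of an accession with the others, where 8.34% of all such comparisons were called.

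Signs of these differences were largely shared across the set, whose genes moved together on single arrays. Omo2-3 was higher than the mean of the other accessions for 30 of 30 genes (median difference 0.28), and Tamm-2 for 28 (0.20). Bil-5 was lower for 30 (median -0.11) and Eden-1 for 29 (-0.16), with LHCB4.3 the 1 gene higher in Eden-1. Got-22 and Ull2-5 were lower for 27 each, and Ag-0 was higher for 22. Over all loci the median differences lay between -0.0156 (Eden-1) and 0.0143 (Ull2-5).

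The accession comparison depended on the 3 arrays of low weight. Without them 23 of 30 genes passed the F test, against 42.3% of all loci; those that did not were LHCA4, LHCB4.3, PSAD1, PSAG, PSAH2, PSBX and PSBY. Bil-5 was then lower for 13 genes past the threshold (background 3.27%) with a median difference of -0.36, and Tamm-2 higher for 15 (6.81%) with a median of 0.35. Omo2-3 was higher for 7 (5.06%) and Eden-1 lower for 2 (9.48%). With array quality weights in place of removal 18 genes passed the F test (47.9%). The removed arrays were the highest array of dry Bil-5, the highest of wet Bil-5 and the lowest of dry Tamm-2. Taking them out by itself lowers the Bil-5 level and raises that of Tamm-2, so the size of these 2 differences depends on the choice of arrays. With all arrays Bil-5 was already lower for 30 genes and Tamm-2 higher for 28. Omo2-3, which lost no array, went from 1 call to 7. What share of the added calls came from the level shifts was not tested. The lowest array of wet Bil-5, replicate 1, was kept (median deviation of the set -0.486, weight 0.617).

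Other genes of photosynthesis were read from the same fit, in lists drawn from textbook knowledge with results of these data already known. Over all loci 12.2% rose and 11.5% fell, with a median change of -0.000186. Of 13 further photosystem and antenna genes 7 rose and 0 fell, with a median change of 0.49. PSB28, an assembly factor of photosystem II, averaged 8.76 ± 0.48 dry (SD, n = 20) and 7.65 ± 0.71 wet (SD, n = 21) and rose by 1.11 ± 0.17 (SE; limma adjusted p = 2.01e-05). LHCA5 and LHCA6, minor antenna proteins that join photosystem I to the NDH complex, rose by 0.83 ± 0.14 and 1.24 ± 0.23, and PSB33, which stabilises photosystem II, by 0.71 ± 0.13. Of 14 genes of electron carriers and ATP synthase 5 rose and 0 fell (median 0.28), among them FNR1, a ferredoxin-NADP reductase, by 0.48 ± 0.10, ATPC1, the gamma subunit of the ATP synthase, by 0.31 ± 0.08, and PGR5 and PGRL1A, of cyclic electron flow, by 0.40 ± 0.13 and 0.40 ± 0.14.

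Genes of carbon fixation and pigment synthesis are counted in the same way. Of 18 genes of the Calvin-Benson cycle, counting its regulators CP12 and the carbonic anhydrase CA1, 10 rose and 1 fell (median 0.33). The transketolase gene TKL1 rose by 0.46 ± 0.07 (SE; limma adjusted p = 2.9e-05), the glyceraldehyde-phosphate dehydrogenase genes GAPA-2 and GAPB by 0.75 ± 0.14 and 0.72 ± 0.16, and SBPASE, the sedoheptulose bisphosphatase, by 0.53 ± 0.12. CP12-3 fell by 0.39 ± 0.13. Of 17 chlorophyll synthesis genes 13 rose and 0 fell (median 0.43), among them GSA2, of the early steps (0.63 ± 0.10), the magnesium chelatase genes CHLI1 (0.68 ± 0.12) and CHLI2 (0.76 ± 0.13), and the protochlorophyllide reductase gene PORC (0.91 ± 0.16).

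Of 14 genes for antenna insertion and Rubisco assembly 9 rose and 0 fell (median 0.48). The Rubisco assembly factor genes AT5G28500, AT3G04550 and AT5G51110 rose by 0.69 ± 0.08, 0.94 ± 0.13 and 0.52 ± 0.10 (SE), and CPSRP54, whose product carries antenna proteins to the thylakoid, by 0.81 ± 0.12. Of 14 regulators of photosynthesis genes 5 rose and 1 fell (median 0.13). The plastid sigma factor genes SIG6 and SIG1 rose by 0.93 ± 0.08 (limma adjusted p = 2.53e-08) and 0.89 ± 0.10, and GLK1, a factor that activates antenna genes, by 0.50 ± 0.08, while the sigma factor gene SIG5 fell by 0.38 ± 0.06. Of 9 genes of photoprotection and antenna phosphorylation 3 rose and 0 fell (median 0.15): the kinase gene STN8 (0.68 ± 0.15), VDE, of the xanthophyll cycle (0.53 ± 0.15), and OHP1 (0.45 ± 0.16), while the phosphatase gene TAP38 differed by 0.16 ± 0.08 (limma adjusted p = 0.162). None of the 99 genes of these 7 lists passed the interaction test.

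Markers of other tissue in the leaf moved partly with drying, and their part in the results was not tested. Over all loci 12.2% rose and 11.5% fell. Of 5 phloem markers 5 fell, with changes between -0.24 (SEOR1) and -0.72 (SWEET12) log2 units, and the mean of the list lay between 7.31 and 8.43 on dry arrays and between 7.88 and 8.86 on wet arrays. Of 4 senescence markers 3 fell (NAP at -1.48 ± 0.19, ORE1 at -1.28 ± 0.21 and WRKY6 at -0.65 ± 0.09, SE), while SAG12 stayed near the bottom of the scale at 4.02 ± 0.27 dry (SD, n = 20) and 3.93 ± 0.07 wet (SD, n = 21). Of 6 guard cell markers 1 fell (FAMA, -0.15 ± 0.04), with list means of 4.98 to 5.61 dry and 5.07 to 5.71 wet. Among the 5 that did not pass, the largest changes were 0.68 ± 0.30 (GC1, limma adjusted p = 0.106) and -0.25 ± 0.16 (KAT1, 0.319). Of 3 epidermis markers 0 passed limma's threshold, with list means of 6.89 to 8.64 dry and 6.85 to 8.82 wet. The 2 measured markers of dividing cells (4.22 to 4.62 dry and 4.34 to 4.73 wet) and the 5 measured root markers (4.35 to 4.79 dry and 4.47 to 4.81 wet) lay near the lowest signal of the table, 3.35, and 0 of them passed; none of these 10 markers of epidermis, dividing cells and root had an unadjusted p under 0.05.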

How the data were processed

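Rosette leaf RNA was measured on 41 arrays. The log2 signals were made by the authors, with 1 deposited number per locus and array between 3.35 and 14.30; the log2 scale was read off the numbers. Per the submitters' processing notes, RMA and MAS5 were in use, with neither roles nor versions stated. The array design, probe mapping and genome build were not given in the sources used here. Loci were named through a gene table of assembly TAIR10.1 (20972 of 21164 matched). Of the loci, 26 had values identical to another locus, 0 of them members of the set. No further normalization or filter was applied, and 0 columns were left unmapped. Arrays carry no counts, and their number limits the precision.

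A linear model of 14 group means was fitted over all loci with limma 3.58.1 (R 4.3.3; 27 residual and 2.06 prior degrees of freedom), with two-sided p-values adjusted by Benjamini-Hochberg over 21164 loci at a threshold of 0.05. "Rose" and "fell" refer to the mean of dry minus wet over the 7 accessions. Gene copies were compared by permutation (Python 3.11.15, numpy 2.4.6). The scripts were tested on simulated data. The members, lists and tests were chosen with earlier results of these data known. All measured members are named; group means are given for members with the 8 smallest drying p, the 8 smallest accession p, the 4 smallest interaction p and for gene copies, and of each other list the 4 genes with the smallest drying p. Alternatives were quantile normalization, centring, removal of the lowest 25% of loci, other priors, array weights, a replicate block, an additive model, wet arrays alone, and leaving out each array or accession. Same-numbered dry and wet arrays deviated together (r over 0.1) in 10 of 20 pairs, so the numbers were not taken to pair samples.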

Additional observations from a re-analysis of the deposited data

How the results depend on the processing

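Against 5 members that rose and 1 that fell, 3 rose and 0 fell with each array centred on its median (LHCB6, PSAH2 and LHCB4.3 lost their calls), 8 rose with array quality weights, and 10 rose and 0 fell without the 3 arrays of low weight, the last setting chosen after the data were seen. The fall, that of LHCB4.3, was also lost (0 fell) with a trended robust prior and without Bil-5, Eden-1, Omo2-3, Tamm-2, Ull2-5 or Ag-0. Leaving out an accession left 1 rise without Got-22 and 2 without Omo2-3 or Ull2-5. With the replicate number as a block 5 rose and 0 fell, LHCB4.3 having limma adjusted p = 0.0544, and the block changed no other call of a member. Leaving out 1 array gave 3 to 8 rises and 0 to 1 falls, with 8 rises without Bil-5 wet replicate 2 or Eden-1 dry replicate 2. The accession effect, called for 2 members, was called for 18 with array weights, 23 without the arrays of low weight, 4 without Bil-5, 1 on wet arrays alone and 1 without Eden-1, Omo2-3 or Tamm-2; leaving out 1 array gave 1 to 5. The 3 calls of an accession against the others became 5 without the lowest 25% of loci, 16 with weights, 37 without the arrays of low weight, and 1 to 7 when 1 array was left out. Calls within accessions and for the interaction stayed at 0 by limma in every fit run. Sign changes were limited to values that were never called: PSBQ2 (-0.0404 with quantile normalization, -0.0116 without Got-22), PSAN (-0.0702, -0.0413 and -0.0448 without Got-22, Omo2-3 and Ull2-5) and the difference of PSAD2 and PSAD1 (-0.0141 without Got-22). Leaving out 1 array gave -0.044 to 0.107 for PSAN, -0.0013 to 0.082 for PSBQ2, -0.027 to 0.317 for LHCB2.3, -0.034 to 0.066 for the PSAD pair, 0.385 to 0.468 for the PSBO pair, -0.501 to -0.432 for LHCB4.3 and LHCB4.1, -0.170 to -0.081 for LHCB4.2 and LHCB4.1, and -0.186 to -0.077 for the PSBQ pair. The cause of these changes was not tested. The 3 arrays per group limit what small changes could be told. Signals near the top of the scale may limit it too, which was not tested.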
